A study of Mus musculus with 8 samples.

Results

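The Spata genes ("spermatogenesis associated") of the mouse testis were described in testes labelled valine, after the branched-chain amino acid, and in testes labelled control. Members were the protein-coding genes whose symbol is Spata followed by a number, apart from 1 gene of that name that is not analysed here. This gave 28 of the 55414 genes in the table, and all 28 had a mean of at least 1 FPKM, the level above which genes were tested (22077 genes). FPKM is a fragment count scaled to gene length and to the size of the library, so levels can be compared between genes. RNA sequencing of testis gave 4 valine and 4 control samples. The labels name the treatment only as valine or control. They state no dose, route, duration, strain or age, and do not say that the samples are different mice. The p-values therefore rest on sample-to-sample spread that could be technical.

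The family shares a name and not a common ancestor. Most of its genes were named from transcripts that are abundant in the testis, and their products serve different steps of sperm building. Spermatids, the haploid cells made by meiosis, condense the nucleus, grow the acrosome (the enzyme-filled cap of the sperm head), attach the tail at the neck and wrap mitochondria around its midpiece. Spata6, Spata16, Spata20, Spata32 and Spata46 are placed here with the head and neck, Spata18, Spata19 and Spata33 with mitochondria, and Spata17, Spata21 and Spata48 with the flagellum or calcium binding. Spata2, Spata2l, Spata5, Spata7, Spata13 and Spata24 encode proteins with known partners in cells of other tissues too. The Spata31 group (Spata31 and Spata31d1a to Spata31d1d) is a set of related genes on chromosome 13. For Spata1, Spata3, Spata4, Spata9, Spata25 and Spata45 no role is given here.

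In valine testes 7 of the 28 genes rose and none fell at a limma adjusted p below 0.05. The 7 were Spata33, Spata24, Spata45, Spata3, Spata4, Spata7 and Spata16, by 1.15-fold to 1.39-fold. The count is 25.0% of the members, against 4.32% of all tested genes that were higher and 4.41% that were lower. Of these genes, Spata33 and Spata4 lie on chromosome 8, Spata3 and Spata45 on chromosome 1, Spata16 on chromosome 3 and Spata7 on chromosome 12. Most Spata genes are abundant, and abundant genes rose more often: of the 1813 tested genes with a mean above 100 FPKM, 26.2% were higher and 3.03% lower. Of the 18 members above that level, 7 were higher (38.9%). The median log2 change was 0.17 over the 28 members and 0.02 over all tested genes. Above 100 FPKM it was 0.21 over the 18 members and 0.16 over all genes of that level. A positive log2 change was seen in 21 members (75%) and in 53.6% of all tested genes. Above 100 FPKM it was seen in 16 of the 18 members and in 78.8% of the genes. At an unadjusted limma p below 0.05, 12 of the 28 members were higher and 2 lower, against 13.8% and 11.8% of all tested genes. Of the 1813 genes above 100 FPKM, 867 were higher and 116 lower at that p. Of the 18 members above that level 11 were higher and 0 lower. Every log2 change given is of log2(FPKM + 1), so changes of weakly expressed genes come out smaller than they are. Means are given ± SD with n = 4 in each group.

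Libraries and tissue markers set the frame for these changes. FPKM totals were 1027662 to 1070524 in the valine and 944659 to 974626 in the control samples, and low values that stood in whole-fragment ratios gave sequencing depths of 0.865 to 0.992 (valine) and 0.870 to 1.00 (control) relative to control replicate 1. The absolute depth was unknown. Markers of elongating spermatids summed to 59249 to 71657 FPKM in valine and 46741 to 48879 FPKM in control samples, and 9 of 10 rose (7 with equal totals, 2 with quantile normalisation). Markers of Leydig cells, the hormone-making cells between the tubules, summed to 461 to 751 FPKM in valine and 1580.4 to 2243 FPKM in control samples, and 7 of 7 fell. Of 9 round spermatid markers 3 rose and 1 fell, of 9 spermatocyte markers 1 rose and 1 fell, and of 7 spermatogonial markers 2 fell. Markers of other cells between and around the tubules fell in part, 4 of 7 for macrophages, 3 of 4 tested for endothelium, 2 of 5 for peritubular myoid cells and 4 of 5 for stroma. Of 7 Sertoli cell markers 1 rose. Adipocyte markers summed to 33.1 to 41.4 FPKM in valine and 31.6 to 89.1 FPKM in control samples, with 1 of 6 lower, and 4 of 5 epididymis markers averaged under 1 FPKM. Control replicate 1 stood apart in part of these lists. Cfd was at 29.8 FPKM there and at most 0.152 FPKM in valine and 1.77 FPKM in the other control samples. Car3 was at 14.6 FPKM there and at most 0.196 FPKM in valine and 1.65 FPKM in the other control samples. Crisp1 was at 5.06 FPKM there and at most 0.191 FPKM in valine and 0.282 FPKM in the other control samples. Fabp4 and Retn were also highest there, at 7.78 and 3.38 FPKM. Adipoq was not, at 30.9 FPKM there and 38.6 FPKM in valine replicate 1. Nor were Plin1 and Rnase10, at 2.72 and 3.76 FPKM there and 2.90 and 9.34 FPKM in control replicate 3. Col1a1, Col1a2 and Col3a1 of the stroma list were highest in control replicate 1, at 12.1, 12.6 and 14.5 FPKM. They were at most 5.14, 6.80 and 6.76 FPKM in the other control samples and 3.26, 2.86 and 4.11 FPKM in valine. Dcn and Pdgfra of that list were highest in control replicate 2, at 20.3 and 6.14 FPKM. The remaining epididymis markers stayed under 1 FPKM in every sample. No marker of these lists was listed at 0 in every sample, and their part in the Spata changes was not tested. In bulk tissue, fewer cells of a type and less RNA per cell cannot be told apart.

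Scaling of the samples decides part of the count. Rescaling to equal FPKM totals shifted the median log2 change of all genes by -0.10. With it 5 members were higher and Spata5 was lower, against 1.64% of all tested genes higher and 9.16% lower. All 5 had over 100 FPKM, where 10.6% of genes were higher and 8.6% lower. With quantile normalisation 3 members were higher and Spata20 was lower, against 1.8% and 4.66% of all tested genes and 6.34% and 8.99% of those above 100 FPKM. Spata33, Spata24 and Spata45 were higher in all 18 alternative settings, Spata3 in 17, Spata4 in 14, Spata16 in 7 and Spata7 in 6. Control replicate 1 was the sample with the higher Cfd, Car3 and Crisp1. Without it 4 members were higher, against 1.73% of all tested genes higher and 2.09% lower. With no filter on low levels 4 were higher, against 1.35% and 1.69%, and with a term for the replicate number 7 were higher, against 2.63% and 2.21%. With a filter at a mean of 5 FPKM 9 of 27 tested members were higher, Spata17 and Spata32 among them, against 8.18% of all tested genes higher and 5.4% lower.

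**Figure D1:**
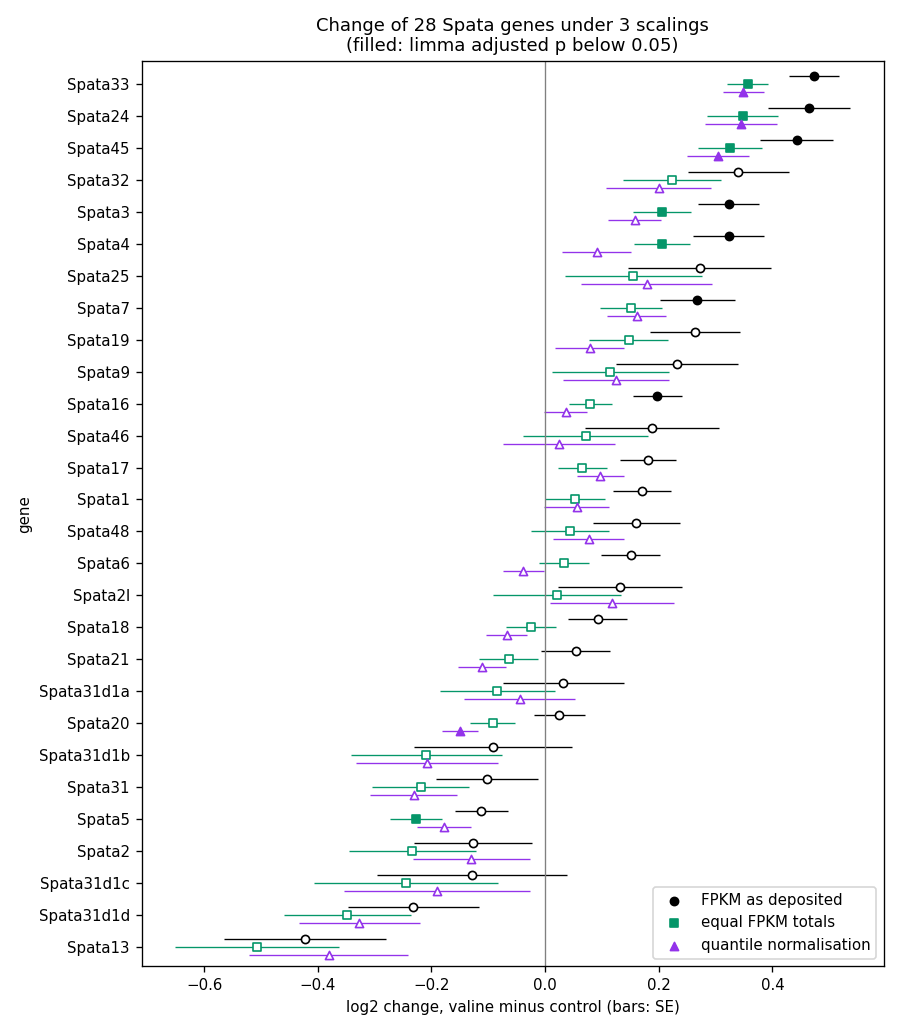
Log2 change (valine minus control, x axis, bars are SE) of each of the 28 Spata genes (y axis) with FPKM as deposited (circles), equal FPKM totals (squares) and quantile normalisation (triangles). Filled symbols passed a limma adjusted p of 0.05: 7 genes were higher as deposited, 5 with equal totals and 3 with quantile normalisation, and only Spata33, Spata24 and Spata45 were filled in all 3.

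Levels within the family spanned a wide range. The mean over the 8 samples lay between 2.54 FPKM for Spata13 and 1582 FPKM for Spata4, with a median of 163 FPKM, against 8.28 FPKM over all tested genes. Spata4, Spata20, Spata21, Spata18 and Spata19 led the order and together made up 57.6% of the family's FPKM. The level of Spata4 ranked 53 among all tested genes. Of the 27 neighbouring pairs in that order, 12 overlapped in both groups. In 8 pairs the higher gene exceeded its neighbour in every sample of both groups: Spata4 over Spata20, Spata21 over Spata18, Spata18 over Spata19, Spata6 over Spata3, Spata46 over Spata45, Spata5 over Spata2l, Spata2l over Spata2 and Spata2 over Spata13. In 6 pairs the ranges were apart in 1 group only. In the last pair the order turned, with Spata33 wholly above Spata31 in valine testes and wholly below it in control testes. The family's sum was 9327, 8944, 8931 and 10019.7 FPKM in valine replicates 1 to 4, against 8113, 7862, 8304 and 8619 FPKM in control replicates 1 to 4. As a share of all FPKM it was 0.866% to 0.936% in the valine and 0.821% to 0.884% in the control samples, and these ranges overlapped.

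**Figure D2:**
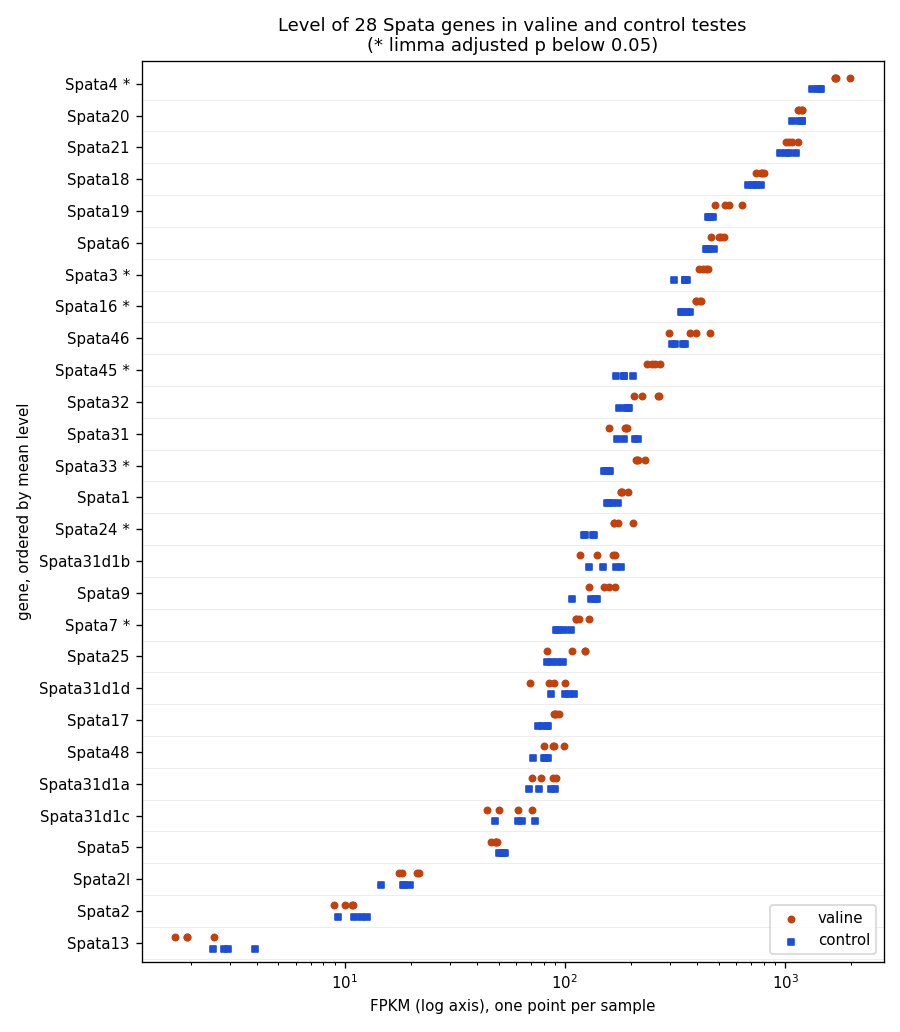
FPKM (x axis, log scale) of the 28 Spata genes (y axis, ordered by mean level) with 1 point per sample, valine as circles above control as squares. Means run from 2.54 FPKM (Spata13) to 1582 FPKM (Spata4), and in 11 genes every valine sample lay above every control sample.

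Promoters of 4 of the risen genes are shown as the annotated start regions of these transcripts, and because the genes differ in kind: Spata33 had the lowest p of the family, Spata45 is the shortest member, Spata4 is the most abundant and Spata7 is the longest. Each is RefSeq sequence of build GRCm38.p6, from 250 bases before to 50 bases after an annotated start, read 5′ to 3′ on the gene's strand. The lines are Spata33 (chr8:123212608-123212907, plus strand), Spata45 (chr1:191036569-191036868, plus strand, the second of 2 listed starts), Spata4 (chr8:54600531-54600830, plus strand) and Spata7 (chr12:98627892-98628191, plus strand). Capitals mark matches on either strand to the letters searched. TGACG is the short site of the cAMP response element. Its core, ACGTCA, holds that short site on the other strand, so every ACGTCA match is also a TGACG match. MYB proteins bind TAACTG or, as a variant, CAACTG. Regulatory factor X proteins bind GTTGCC. The TATA box was searched as TATAAA.
Spata33: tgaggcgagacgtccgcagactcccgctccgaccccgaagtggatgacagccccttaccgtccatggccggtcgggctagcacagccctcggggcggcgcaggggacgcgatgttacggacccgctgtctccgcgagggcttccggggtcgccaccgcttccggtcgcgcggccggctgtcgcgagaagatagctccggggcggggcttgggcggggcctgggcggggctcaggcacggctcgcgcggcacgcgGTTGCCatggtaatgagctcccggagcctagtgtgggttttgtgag
Spata45: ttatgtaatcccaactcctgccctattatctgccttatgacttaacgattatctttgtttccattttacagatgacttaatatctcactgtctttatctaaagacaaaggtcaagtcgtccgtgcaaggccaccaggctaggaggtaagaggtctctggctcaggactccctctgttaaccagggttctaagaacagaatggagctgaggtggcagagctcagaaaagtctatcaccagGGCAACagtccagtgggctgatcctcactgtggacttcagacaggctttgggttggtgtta
Spata4: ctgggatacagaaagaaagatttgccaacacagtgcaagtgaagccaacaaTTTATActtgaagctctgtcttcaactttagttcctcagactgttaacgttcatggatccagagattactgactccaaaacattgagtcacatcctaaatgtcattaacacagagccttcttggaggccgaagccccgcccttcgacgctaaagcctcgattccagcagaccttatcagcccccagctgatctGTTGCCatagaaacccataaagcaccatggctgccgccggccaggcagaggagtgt
Spata7: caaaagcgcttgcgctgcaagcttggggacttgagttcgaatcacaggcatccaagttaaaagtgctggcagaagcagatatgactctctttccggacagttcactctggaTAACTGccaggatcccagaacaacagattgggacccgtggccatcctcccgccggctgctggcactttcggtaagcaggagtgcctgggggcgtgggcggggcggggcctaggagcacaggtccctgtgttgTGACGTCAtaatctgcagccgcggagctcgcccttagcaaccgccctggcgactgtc
The Spata33 window held 39 CpG dinucleotides and the Spata45 window 3. Promoters of 26 of the 28 members, all but Spata24 and Spata2l, were searched, at the first listed start of each. The 32851 promoters set beside them include every listed start of a gene. For 5 of these 26 (Spata1, Spata7, Spata13, Spata45 and Spata48) the bases after that start were not found at the beginning of a GENCODE vM21 transcript of the gene; for all but Spata7 another listed start was. TGACG was in 7 of them (26.9%) and in 20.8% of all 32851 promoters. ACGTCA was in 5 (19.2%, against 7.51% of all), namely Spata5, Spata6, Spata7, Spata18 and Spata32, of which Spata7 rose. TAACTG was in 6 (23.1%, against 10.1%) and CAACTG in none, against 13.7% of all. GTTGCC was in 3 (11.5%, against 12.5%), Spata4, Spata33 and Spata31d1a, and the Spata45 match shown lies at its second start, outside this count. TATAAA was in 2 (7.69%, against 13.6%), Spata4 and Spata48, and in Spata48 it was absent from the start found in GENCODE. At least 15 CpG were held by 9 of the 26 windows (34.6%), as in 34.6% of all promoters; all 4 windows of genes with partners in many tissues were among them and none of the 5 of the Spata31 group. A match is only a match of letters.

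The mitochondrial members included the clearest rise. Spata33, whose product in mouse sperm anchors the phosphatase calcineurin to mitochondria of the midpiece, had 211, 215, 212 and 230.3 FPKM in valine replicates 1 to 4, against 151, 154, 160.3 and 159 FPKM in control replicates 1 to 4. All 4 valine samples lay above all 4 control samples, with a gap wider than the spread in either group. The log2 change was 0.47 ± 0.0442 SE (limma adjusted p = 0.00215), and 0.36 with equal totals. Spata19, a mitochondrial protein of the sperm midpiece, had 556, 531, 480.3 and 639 FPKM in valine replicates 1 to 4, against 453, 457, 448 and 470.3 FPKM in control replicates 1 to 4. Its groups did not overlap either, but valine replicates 3 and 4 lay far apart and the change did not pass (log2 change 0.26 ± 0.0793 SE, limma adjusted p = 0.077), except without valine replicate 3 (limma adjusted p = 0.0361). Spata18, which acts in the quality control of mitochondria and is a p53 target in human cells, had 775, 734, 785 and 805 FPKM in valine replicates 1 to 4, against 712, 679.6, 740.1 and 777 FPKM in control replicates 1 to 4. These groups overlapped (limma adjusted p = 0.305), and the sign of the change was negative with equal totals and quantile normalisation.

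Partners of the Spata33 product and genes of the midpiece rose in part. Of 11 such genes 6 rose and none fell, with a median log2 change of 0.20 over the list, beside 0.16 over all genes above 100 FPKM. Of all tested genes 4.32% were higher and 4.41% lower, and of those above 100 FPKM 26.2% and 3.03%. Ppp3r2, the sperm-type regulatory subunit of calcineurin, averaged 356 ± 16.2 FPKM in valine and 279.8 ± 6.24 FPKM in control testes (limma adjusted p = 0.00505; SD, n = 4 each). Its catalytic subunit Ppp3cc averaged 174 ± 3.64 FPKM in valine and 154 ± 5.78 FPKM in control testes (limma adjusted p = 0.0388). Vdac2, a channel of the outer mitochondrial membrane that binds SPATA33 in mouse sperm, averaged 272 ± 12.9 FPKM in valine and 230.2 ± 9.03 FPKM in control testes (limma adjusted p = 0.0224), and its relative Vdac3 averaged 144 ± 6.71 FPKM in valine and 124 ± 3.91 FPKM in control testes (limma adjusted p = 0.0279). Smcp and Gpx4, proteins of the capsule around sperm mitochondria, also rose. Smcp is also among the elongating spermatid markers above and is counted in both lists. Smcp averaged 5407 ± 209 FPKM in valine and 4414 ± 156 FPKM in control testes (limma adjusted p = 0.00823), and Gpx4 averaged 1768 ± 129.9 FPKM in valine and 1386 ± 40.1 FPKM in control testes (limma adjusted p = 0.0105). Gpx4, Ppp3r2 and Smcp were also higher with equal totals, and none of the 11 was higher with quantile normalisation.

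Among the head and neck genes 1 of 5 rose. Spata16, a protein of the forming acrosome whose loss causes round-headed sperm in humans, had 394, 394, 414 and 409 FPKM in valine replicates 1 to 4, against 338, 339.8, 368 and 359 FPKM in control replicates 1 to 4. No valine sample overlapped a control sample, yet the change was small (log2 change 0.20 ± 0.0431 SE, limma adjusted p = 0.0285). It did not pass with equal totals or quantile normalisation (limma adjusted p = 0.226 and 0.613), nor when any 1 of 6 of the 8 samples was left out. Nor did it pass with no expression filter, the length trend removed or moderation without the trend (limma adjusted p = 0.0585, 0.113 and 0.0904). Spata32, an acrosome-associated protein, had 207, 224, 266 and 267 FPKM in valine replicates 1 to 4, against 195, 194, 189.9 and 177 FPKM in control replicates 1 to 4. Every valine value exceeded every control value, but valine replicates 1 and 2 were near the controls and the test just missed the threshold (log2 change 0.34 ± 0.0884 SE, limma adjusted p = 0.0501); it passed in 2 of the 18 alternative settings. Spata20, a thioredoxin-domain protein, was the second most abundant member, with 1189, 1140.2, 1162 and 1199 FPKM in valine replicates 1 to 4, against 1153, 1071, 1189 and 1199 FPKM in control replicates 1 to 4. Its groups overlapped fully (log2 change 0.03 ± 0.0455 SE, limma adjusted p = 0.776), and with quantile normalisation it was lower (-0.15, limma adjusted p = 0.0312). Spata6, which builds the connecting piece between head and tail in the mouse, lay at 459 to 527 FPKM in valine and 435 to 473 FPKM in control samples (limma adjusted p = 0.115). Spata46, a protein of the sperm head, lay at 298 to 455 FPKM in valine and 306 to 349.8 FPKM in control samples (limma adjusted p = 0.359), and its valine values spread more than its control values.

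Other genes of the head-tail coupling apparatus, the structure that joins the sperm tail to the nucleus, moved in part. Of 11 listed 6 rose and none fell (Ccdc42, Cep112, Hook1, Oaz3, Odf1 and Prss21), with a median log2 change of 0.19 over the list, beside 0.16 over all genes above 100 FPKM, of which 26.2% were higher. Without control replicate 1, 4 of all 54 tested partner genes were higher in place of 15. Odf1, an outer dense fibre protein, averaged 3456 ± 143 FPKM in valine and 2901 ± 133 FPKM in control testes (limma adjusted p = 0.0176), and Oaz3, an antizyme of late spermatids, averaged 840.1 ± 45.8 FPKM in valine and 665 ± 42.0 FPKM in control testes (limma adjusted p = 0.0134). Cep112, a centrosomal protein, averaged 72.2 ± 4.98 FPKM in valine and 58.9 ± 2.88 FPKM in control testes (limma adjusted p = 0.0276). Ccdc42, Hook1 and Prss21 had log2 changes of 0.26, 0.19 and 0.34. Odf1 and Oaz3 are also among the elongating spermatid markers above, so their rises are counted in both lists. Oaz3 was the only one of the 11 that was higher with equal totals, where Pmfbp1 was lower. Of 9 other genes linked to round-headed sperm or acrosome formation only Zpbp2 rose, with 419 ± 34.7 FPKM in valine and 354 ± 10.2 FPKM in control testes (limma adjusted p = 0.0479), and it did not pass with equal totals, quantile normalisation or removal of the length trend. Zpbp of this list is also among the round spermatid markers above.

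None of the 3 members of the flagellum and calcium group passed. Spata17, which has calmodulin-binding motifs, had 89.0, 89.8, 91.4 and 94.1 FPKM in valine replicates 1 to 4, against 75.6, 78.6, 84.2 and 82.6 FPKM in control replicates 1 to 4. The groups were narrow and apart (log2 change 0.18 ± 0.0488 SE), and the limma adjusted p was 0.056 (0.0448 with the filter at 5 FPKM). Spata21, an EF-hand calcium-binding protein, had 1078, 1013, 1045 and 1147 FPKM in valine replicates 1 to 4, against 1043, 952, 1011 and 1124 FPKM in control replicates 1 to 4. Valine and control values covered nearly the same range (log2 change 0.05 ± 0.0609 SE, limma adjusted p = 0.629). Spata48 lay at 80.2 to 99.1 FPKM in valine and 71.6 to 84.2 FPKM in control samples. It shares 12.0% of its exon length in GENCODE vM21 with Zpbp on the opposite strand, and no source states whether counting used strand, so its level is uncertain.

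Of the 6 testis-enriched members without a role given here, 3 rose. Spata45, with an exon length of 506 bp, had 249, 257, 236 and 271 FPKM in valine replicates 1 to 4, against 171, 185, 203 and 186 FPKM in control replicates 1 to 4. The lowest valine value exceeded the highest control value (log2 change 0.44 ± 0.0641 SE, limma adjusted p = 0.00713). Spata4 had 1701, 1684, 1680.4 and 1973 FPKM in valine replicates 1 to 4, against 1318, 1439.7, 1407 and 1451 FPKM in control replicates 1 to 4. Valine replicate 4 stood above the other valine samples, and all of them exceeded the controls (log2 change 0.32 ± 0.0620 SE, limma adjusted p = 0.0181). With quantile normalisation the change of Spata4 was 0.09 and did not pass (limma adjusted p = 0.407), nor did it pass with the length trend removed (0.0995) or without control replicate 1 (0.0563). With no expression filter Spata4 just missed the threshold (limma adjusted p = 0.0509). Spata3 had 426, 407, 444 and 439 FPKM in valine replicates 1 to 4, against 351, 313, 357 and 352 FPKM in control replicates 1 to 4. Control replicate 2 was the lowest of its group, and no valine value reached down to the controls (log2 change 0.32 ± 0.0541 SE, limma adjusted p = 0.0116; 0.0869 with quantile normalisation). Spata1 had 181, 179, 194 and 179 FPKM in valine replicates 1 to 4, against 155, 163, 175 and 158 FPKM in control replicates 1 to 4. Its groups were apart by a small margin and the change did not pass (log2 change 0.17, limma adjusted p = 0.0774). Spata9 lay at 128 to 169 FPKM in valine and 108 to 140.1 FPKM in control samples, and Spata25 at 83.0 to 124 FPKM in valine and 83.0 to 97.7 FPKM in control samples. Both overlapped between groups. Spata25 shares 21.5% of its exon length with Zswim1 on the opposite strand and is uncertain; without valine replicate 3 it passed (limma adjusted p = 0.0328).

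Genes with partners in many tissues held 2 rises. Spata24, whose product binds the TBP-like transcription factor TBPL1, had 175, 168, 168 and 204 FPKM in valine replicates 1 to 4, against 122, 135, 123 and 134 FPKM in control replicates 1 to 4. The groups were well separated (log2 change 0.46 ± 0.0723 SE, limma adjusted p = 0.00931). In GENCODE vM21 41.9% of its exon length is also covered by a second gene model on the same strand, which was listed at a mean of 0.0780 FPKM, so its level depends on how shared fragments were counted. Tbpl1 itself rose, with 260.0 ± 10.04 FPKM in valine and 207 ± 16.8 FPKM in control testes (limma adjusted p = 0.0177), as did Gtf2a1, a subunit of the general factor TFIIA, with 26.7 ± 0.838 FPKM in valine and 22.2 ± 0.696 FPKM in control testes (limma adjusted p = 0.0219). These were 2 of the 4 tested genes of a list of TBP family and TFIIA genes. Tbp and Gtf2a1l of that list did not pass (limma adjusted p = 0.0844 and 0.0564), and Tbpl2 was listed at 0 in every sample. Neither Tbpl1 nor Gtf2a1 passed with equal totals, and Gtf2a1 was higher with quantile normalisation. Spata7, needed for the connecting cilium of photoreceptors, had 116, 112, 113 and 129 FPKM in valine replicates 1 to 4, against 91.3, 93.1, 99.4 and 106 FPKM in control replicates 1 to 4. Valine replicates 2 and 3 lay close above control replicate 4 (log2 change 0.27 ± 0.0660 SE, limma adjusted p = 0.0422). The call was lost in 7 of 8 fits with 1 sample left out and with equal totals, equal medians and quantile normalisation (limma adjusted p = 0.116, 0.0549 and 0.106). It was also lost with no expression filter and with moderation without the trend (limma adjusted p = 0.0721 and 0.0803). It held with the length trend removed (limma adjusted p = 0.0183). With FPKM as deposited none of 5 partner genes of that cilium passed, with Rpgrip1l and Rpgr the nearest (limma adjusted p = 0.483 and 0.612).

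The other 4 genes of this kind did not pass. Spata13, an exchange factor that activates the GTPases Rac1 and Cdc42, was the lowest member, at 1.70, 1.92, 1.92 and 2.54 FPKM in valine replicates 1 to 4, against 3.92, 2.96, 2.83 and 2.53 FPKM in control replicates 1 to 4. Only valine replicate 4 reached into the control range (log2 change -0.42 ± 0.142 SE, limma adjusted p = 0.105). Cdc42 fell, with 57.0 ± 3.15 FPKM in valine and 68.4 ± 3.90 FPKM in control testes (limma adjusted p = 0.0369), as 1 of 3 tested genes of its list. That call was lost whenever 1 sample was left out. Spata5, an AAA ATPase of ribosome maturation, had 48.4, 46.0, 48.4 and 49.2 FPKM in valine replicates 1 to 4, against 52.6, 53.3, 50.0 and 51.8 FPKM in control replicates 1 to 4. It was the 1 member whose valine samples all lay below the control samples (log2 change -0.11 ± 0.0460 SE, limma adjusted p = 0.169), and with equal totals it was lower (-0.23, limma adjusted p = 0.0196). Cinp, Vcp and Rsl24d1, which were listed beside Spata5, did not pass, and Airim of that list was not matched. Spata2, which joins the deubiquitinase CYLD to the linear ubiquitin complex at the TNF receptor, lay at 8.95 to 10.9 FPKM in valine and 9.36 to 12.7 FPKM in control samples, and its paralog Spata2l at 17.6 to 21.7 FPKM in valine and 14.7 to 19.8 FPKM in control samples. None of 8 tested partners of Spata2 passed, though Tnfrsf1a was lower with equal totals. Tnfrsf1a and Ripk1 were nearest (limma adjusted p = 0.0726 and 0.144). Spata2l shares 11.6% of its exon length with Cdk10 on the opposite strand and is uncertain.

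**Figure D3:**
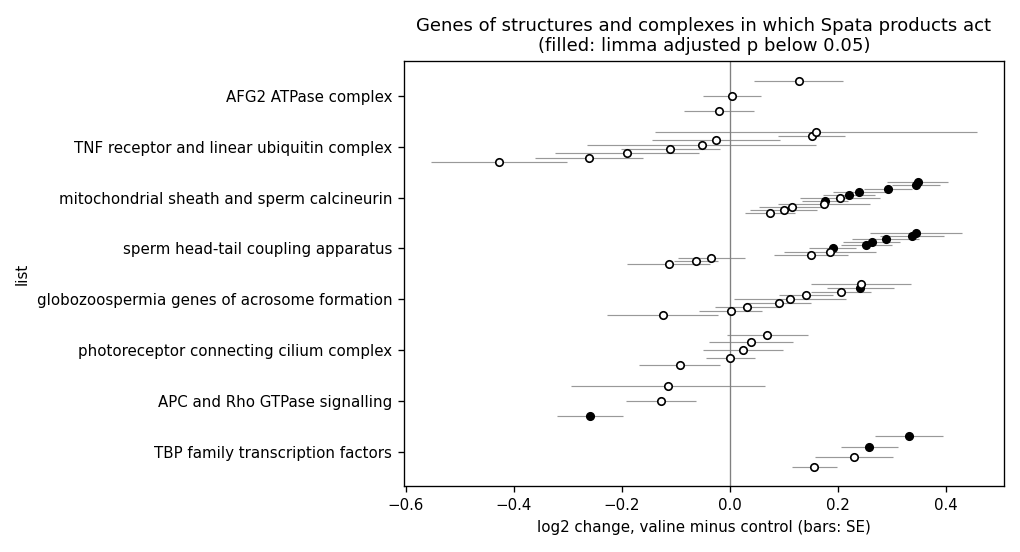
Log2 change (valine minus control, x axis, bars are SE) of tested genes in 8 lists of structures and complexes in which Spata products act (y axis), 1 point per gene. Of 54 genes 15 were higher and 1 lower at a limma adjusted p below 0.05 (filled), 12 of the 15 in the mitochondrial sheath and head-tail lists. Of all tested genes 4.32% were higher and 4.41% lower, and of those above 100 FPKM 26.2% and 3.03%.

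No gene of the Spata31 group passed the test. Its 5 genes had log2 changes of -0.23 to 0.03 with a median of -0.10, and 4 of 5 were negative. Without valine replicate 3 the median was -0.019 and 3 of 5 were negative, and without control replicate 4 the median was -0.04. Spata31 had 192, 190.1, 158 and 187 FPKM in valine replicates 1 to 4, against 185, 172, 216 and 209 FPKM in control replicates 1 to 4. Spata31d1b had 169, 141, 117 and 165 FPKM in valine replicates 1 to 4, against 170.2, 129, 149.6 and 179.7 FPKM in control replicates 1 to 4. Spata31d1d had 99.7, 84.6, 69.4 and 89.4 FPKM in valine replicates 1 to 4, against 104, 86.9, 100.2 and 111 FPKM in control replicates 1 to 4. In each of these 3, chosen after their values were seen, valine replicate 3 was the lowest of all 8 samples and the groups overlapped. Spata31d1a lay at 71.2 to 90.9 FPKM in valine and 68.7 to 89.8 FPKM in control samples, and Spata31d1c at 44.1 to 70.6 FPKM in valine and 48.3 to 73.5 FPKM in control samples. Valine replicate 3 was the lowest valine sample for all 5 genes, and for 7 of the other 23 members. Control replicate 2 was the lowest control sample for 4 of the 5. The group's sum was 619, 543, 461 and 593 FPKM in valine replicates 1 to 4, against 609.5, 519, 590.1 and 662 FPKM in control replicates 1 to 4. The 5 genes are not independent of each other. Spata31d1a and Spata31d1b, on opposite strands of chromosome 13, shared 91.3% of their promoter bases and 84.7% of aligned transcript bases, and 16.2% and 21.6% of their transcript stretches of 75 bases were identical, so their split is uncertain. The other pairs shared 48.3% to 69.0% of promoter bases and no identical stretch of 75 bases.

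**Figure D4:**
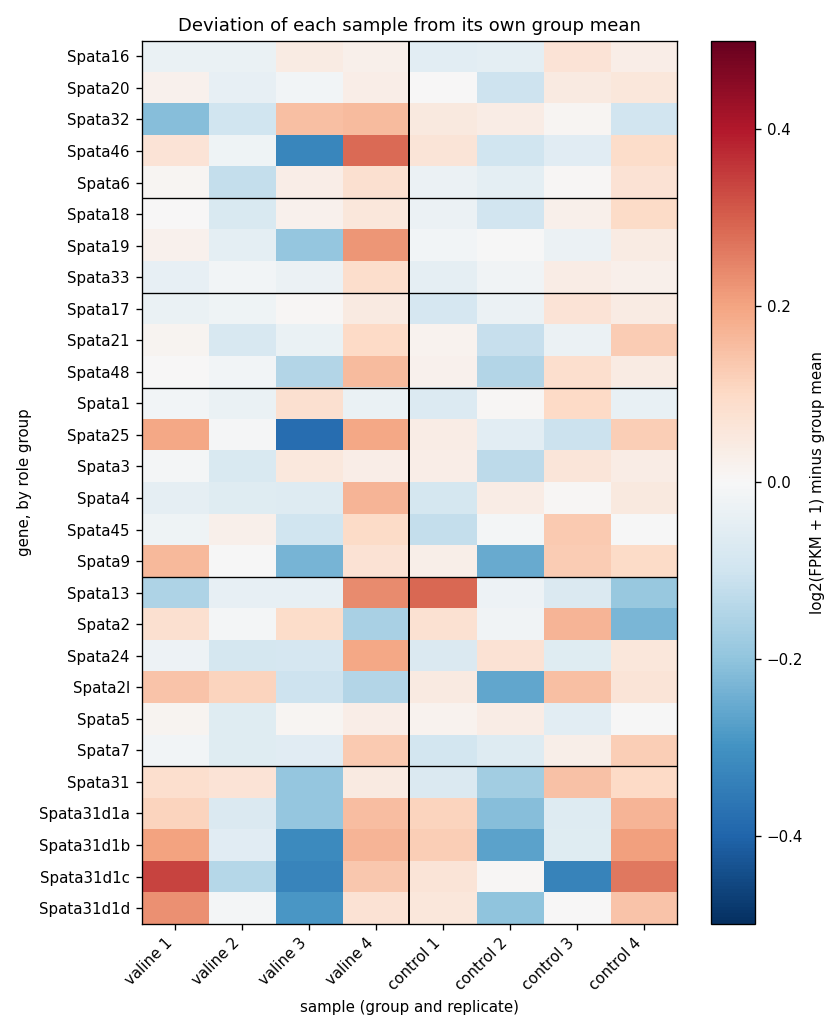
Deviation of each sample from its own group mean in log2(FPKM + 1) units (colour) for the 28 Spata genes (rows, by role group) in 4 valine and 4 control samples (columns). The 5 Spata31 genes are all blue (low) in valine replicate 3, and Spata25 and Spata46 are low in the same sample.

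Transcript length went with the changes inside the family. Across the 28 genes the log2 change and the exon length had a Spearman's rho of -0.55, against -0.34 over 21676 tested genes with a length; genes are not independent replicates and FPKM divides by length, so this is a description only. The 7 shortest members (506 to 1458 bp: Spata4, Spata19, Spata24, Spata25, Spata32, Spata45 and Spata46) all had positive changes, and 3 of them rose. By comparison, 53.6% of all tested genes had positive changes and 4.32% were higher. Above 100 FPKM, where all of the 7 but Spata25 lay, these shares were 78.8% and 26.2%. Shares among all genes of such lengths were not counted. Spata33 and Spata7 rose in spite of exon lengths of 4303 and 10088 bp, and after removal of a smooth trend on length their changes were 0.51 and 0.39. Both passed. With that trend removed 5 members were higher (Spata3, Spata7, Spata24, Spata33 and Spata45) and none lower, against 2.17% of all tested genes that were higher and 3.31% lower.

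**Figure D5:**
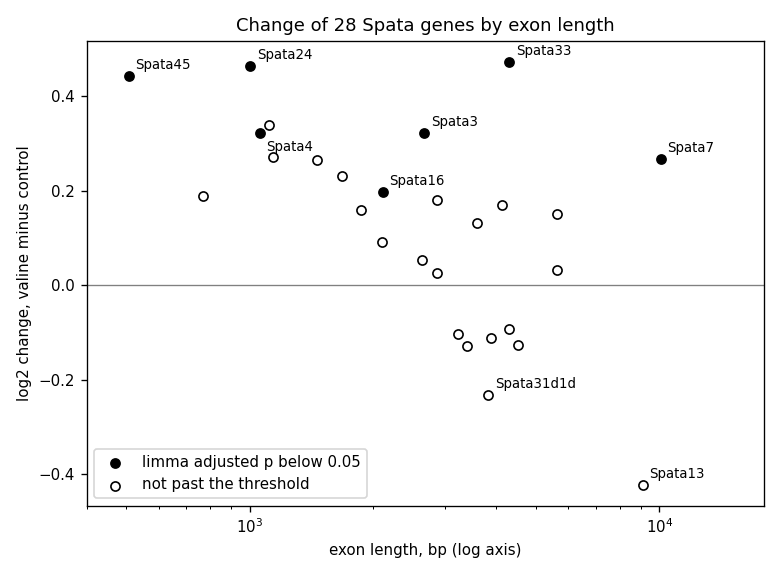
Log2 change (valine minus control, y axis) of the 28 Spata genes against exon length in bp (x axis, log scale). Filled points passed a limma adjusted p of 0.05; the shortest and the longest of them are Spata45 (506 bp) and Spata7 (10088 bp).

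In all, every valine sample lay above every control sample for 11 members (39.3%), and every valine sample below for 1 (Spata5). The same held for 8.99% and 9.39% of all tested genes, and among genes above 100 FPKM for 37.2% and 4.25%. Of the 18 members above 100 FPKM, 10 (55.6%) were apart with valine higher and 0 with valine lower. Beside the 7 risen genes, the 11 comprised Spata1, Spata17, Spata19 and Spata32. The median coefficient of variation over members was 8.69% in valine and 6.67% in control samples. Over the 18 members above 100 FPKM these medians were 6.15% and 5.49%. The median was 13.3% in valine and 13.4% in control samples over all tested genes. Over genes above 100 FPKM it was 6.25% in valine and 6.14% in control samples.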

How the data were processed

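RNA of mouse testis, frozen in liquid nitrogen and extracted with Trizol, went into Illumina TruSeq libraries, as the labels' protocols state. The authors deposited 1 table of FPKM values for 55414 Ensembl genes in 8 samples (4 valine, 4 control). Reads were aligned with HISAT2 to GRCm39, per the submitters' processing notes; version, counting tool, annotation and use of strand are not given in the sources used here. Columns were matched to samples by group name or abbreviation and replicate number.

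Symbols, exon lengths and overlaps came from GENCODE vM21 (52081 genes named) and promoters from RefSeq GRCm38.p6, both of an older assembly than the authors', so no coordinate was carried between builds. On log2(FPKM + 1) values, the 22077 genes averaging 1 FPKM or more were tested with limma 3.58.1 in R 4.3.3, treatment as the only term, trend-adjusted moderation, two-sided p-values and Benjamini-Hochberg adjustment over all tested genes. Alternatives were a pseudocount of 0.1, no filter, a filter at 5 FPKM, equal totals, equal medians, quantile normalisation, removal of a loess trend on length (span 0.3), moderation without the trend, robust moderation, a replicate block, and leaving out each sample. Tested on simulated data for valine against control over 22077 genes, the fit recovered 9.00% of 100 genes given a log2 change of 0.3 and 91.0% of 100 given 1, so most changes of the smaller size were missed there. The changed genes were drawn from all but the weakly expressed genes, and every other gene was left unchanged. In all 105 genes passed there, against 954 higher and 974 lower in the data. The shares recovered therefore need not hold for the Spata members.

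Members and lists were chosen with earlier results of these data known. Members past the threshold, the 4 next by p and the 5 most abundant are given in every sample; of the others the range is given, and per-sample values of Spata5, Spata13, Spata31, Spata31d1b and Spata31d1d were added after their values were seen. Of 58 partner genes 57 were matched and 54 tested.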

Additional observations from a re-analysis of the deposited data

Results flagged for a closer look

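In 4 of 56 sets of 4 samples (28 genes in 2 groups) 1 sample stood far from the other 3, where chance gives about 1 in 20. Spata4 was highest in valine replicate 4, at 1973 FPKM against 1680.4 to 1701 FPKM in the other valine samples. Spata1 was highest in valine replicate 3, at 194 FPKM against 181 FPKM in the next valine sample. Spata31 was lowest in valine replicate 3, at 158 FPKM against 187 FPKM in the next. Spata3 was lowest in control replicate 2, at 313 FPKM against 351 FPKM in the next. Without these samples the limma adjusted p of Spata4 was 0.0225, that of Spata1 0.149, that of Spata31 0.819 and that of Spata3 0.0228.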

How the results depend on the processing

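As deposited 7 members were higher and 0 lower. The counts were 4 and 0 with no expression filter, 9 and 0 with a filter at 5 FPKM, 5 and 1 with equal totals and 3 and 1 with quantile normalisation, and with 1 sample left out 4 to 7 higher and 0 to 0 lower. The replicate block left 7 higher and 0 lower. Over all tested genes, deviations from the group mean correlated at -0.017, -0.040, 0.104 and 0.111 between same-numbered samples 1 to 4. Between differently numbered samples the correlations ran from -0.173 to 0.151. Such weak values cannot decide whether the numbers pair the samples, and the labels do not say. Of the partner genes 15 were higher and 1 lower as deposited, 9 and 0 with no filter, 4 and 3 with equal totals, 3 and 3 with quantile normalisation, 6 and 0 with moderation without the trend, 10 and 0 with the replicate block, and with 1 sample left out 4 to 13 higher and 0 to 0 lower (6 higher without valine replicate 1, 9 higher without valine replicate 3, 4 higher without control replicate 1, 8 higher without control replicate 2, 8 higher without control replicate 3). None of the 7 risen members changed sign in the 18 settings. Signs that changed were those of Spata18 (-0.0250 with equal totals, -0.0675 with quantile normalisation), Spata20 (-0.0923 and -0.150), Spata21 (-0.0638 and -0.111), Spata31d1a (-0.0838 and -0.0449) and Spata6 (-0.0383 with quantile normalisation); with 1 sample left out Spata20 ran -0.0097 to 0.045, Spata31d1a -0.039 to 0.097 and Spata31d1b -0.18 to 0.014. Fewer genes in the adjustment, fewer samples or a shift of all genes are part of these settings by construction; other causes were not tested. Over the 28 changes and the 10 other settings, 253 of 279 values kept sign and side of the threshold, 14 lost the call and 4 gained one (Spata17, Spata32, Spata5 and, with its sign turned, Spata20). With 1 sample left out, 202 of 224 kept both, 14 lost the call and 3 gained one.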
